A study of Mus musculus with 4 samples.

Results

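The genes described here are 10 transcripts of the covering layers of the testis: Upk3b, Upk1b, Lrrn4, Krt19, Krt7, Krt8, Krt18, Msln, Gpm6a and Bnc1. They were chosen by symbol from the 22609 genes of the count table, with the difference between mutant and wild-type testes already known. Their fold changes are therefore a description and carry no test. All 10 passed the filter on low counts and belong to the 14788 genes tested. Polyadenylated RNA of whole testes from mice on postnatal day 3 was sequenced in 4 libraries. Wild-type replicates 1 and 2 carried a normal thyroid hormone receptor alpha 1, per their labels, and are called controls below. Mutant replicates 1 and 2 carried the dominant-negative one, which interferes with normal receptors. Pairs of values are given as replicate 1, then replicate 2. All animals came from crosses of AmhCre mice, in which Cre recombinase is made in Sertoli cells, with TRαAMI heterozygotes, on a background that is mainly C57BL/6J, so the covering cells themselves are not the cells in which the allele was meant to be switched on. Whether the wild-type animals carried Cre or an unrecombined allele, and whether each library came from 1 animal or a pool, is not given in the sources used here. The p-values below therefore measure only the spread between these libraries, which may be technical.

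The testis is wrapped in a mesothelium, the thin epithelium that lines body cavities and descends from the coelomic epithelium of the embryo. Mesothelial cells keep epithelial features, among them filaments of simple keratins, and carry membrane proteins such as mesothelin and a pair of uroplakins. Keratins form filaments only as pairs of a type II with a type I chain, Krt8 and Krt7 being type II and Krt18 and Krt19 type I. Several of these genes are also read in other cells: Krt8 and Krt18 in ducts and other simple epithelia and in immature Sertoli cells, Gpm6a in neurons, and Bnc1 in germ cells and squamous epithelium. In whole testis, fewer cells of a type and less RNA per cell cannot be told apart.

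Gene counts per library ran from 10230512 to 15636832. The members had 173 to 3273 counts each, so that counting error alone was at most 7.60% of a value. Testis markers were present, Amh, the hormone of immature Sertoli cells, being read at 618 to 777 CPM (a gene's share of the library's counts scaled to a fixed total, with library sizes adjusted by the TMM method of edgeR) in the 4 libraries. Thra, which carries the engineered allele, stood at 398 and 257 CPM in the controls against 237 and 194 in the mutants, with a log2 fold change of -0.60 ± 0.19 (SE). It was not called (edgeR adjusted p = 0.0964). Leaving out control 1 moved it to -0.26 (edgeR adjusted p = 0.319), and leaving out mutant replicate 2 to -0.47 (edgeR adjusted p = 0.102). It was called without control 2 at -0.89 (edgeR adjusted p = 0.0464), without mutant replicate 1 at -0.75 (edgeR adjusted p = 0.00556) and with replicate number as a block at -0.57 (edgeR adjusted p = 0.0281). Counts per gene do not separate the normal from the mutant transcript. Thrb, the other receptor gene, was at 8.34 ± 0.540 CPM (SD, n = 2) in the controls and 8.54 ± 0.154 CPM in the mutants (edgeR adjusted p = 0.931). Genes of other tissues differed between the libraries. The sums of 13 genes of skeletal muscle were 25.5 and 23.1 CPM in the controls against 2714 and 706 in the mutants. Of the 13, edgeR called 11 higher, against 3.15% of all tested genes. That count was 1 by limma voom, 1 with edgeR's robust option, 0 without control 1 (11 at an unadjusted p below 0.05) and 1 without control 2, while DESeq2 called 12. The 14 epidermal genes, put together after the keratin values were seen, summed to 64.4 and 66.4 CPM in the controls and 60.6 CPM in mutant replicate 1, and to 201 CPM in mutant replicate 2. Among them Krt1, a keratin of differentiated epidermis, had 537 counts in mutant replicate 2 and 5 to 11 in the others.

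Promoter windows of 4 members are shown because they set side by side genes that read 1.97-fold and 2.42-fold higher in mutant testes, Upk3b and Lrrn4, and the keratin pair whose groups overlapped, Krt8 and Krt18. Each window is 300 bases, from 250 before to 50 after a start site, from RefSeq on GRCm38.p6, printed 5′ to 3′ on the gene's strand. Capitals mark, on either strand, AGGTCA (only a half-site of those bound by thyroid hormone receptors) and GGAATG (the core bound by TEAD factors). They also mark TATAAA (the letters of a TATA box) and GGGCGG (the GC box).
Upk3b, chr5:136038246-136038545, plus strand: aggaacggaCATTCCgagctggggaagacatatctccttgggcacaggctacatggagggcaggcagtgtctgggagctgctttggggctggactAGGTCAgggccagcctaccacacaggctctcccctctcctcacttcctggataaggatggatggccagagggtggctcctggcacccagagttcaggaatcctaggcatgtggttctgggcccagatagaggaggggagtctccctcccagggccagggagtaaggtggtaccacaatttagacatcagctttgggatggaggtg
Lrrn4, chr2:132880813-132881112, minus strand: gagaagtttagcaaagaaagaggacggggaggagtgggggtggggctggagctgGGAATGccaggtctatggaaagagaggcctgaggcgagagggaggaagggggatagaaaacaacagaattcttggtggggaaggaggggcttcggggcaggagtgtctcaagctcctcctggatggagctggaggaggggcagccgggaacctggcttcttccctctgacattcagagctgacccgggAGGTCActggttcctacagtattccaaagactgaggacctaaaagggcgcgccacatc
Krt8, chr15:102004293-102004592, minus strand: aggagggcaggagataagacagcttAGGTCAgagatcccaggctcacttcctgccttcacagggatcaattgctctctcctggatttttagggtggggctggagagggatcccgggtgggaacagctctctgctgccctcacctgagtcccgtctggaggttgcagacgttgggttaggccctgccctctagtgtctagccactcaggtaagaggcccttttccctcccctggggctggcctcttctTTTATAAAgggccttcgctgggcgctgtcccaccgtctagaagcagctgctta
Krt18, chr15:102027966-102028265, plus strand: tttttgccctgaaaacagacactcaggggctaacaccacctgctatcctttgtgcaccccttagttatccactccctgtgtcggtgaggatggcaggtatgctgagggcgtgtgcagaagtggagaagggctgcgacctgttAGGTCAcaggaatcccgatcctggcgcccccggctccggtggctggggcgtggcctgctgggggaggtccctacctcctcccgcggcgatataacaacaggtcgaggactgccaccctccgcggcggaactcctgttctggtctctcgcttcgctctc

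The table held windows for 7 of the 10 members, 8 windows in all because Gpm6a has a pair of start sites. Upk1b, Krt19 and Msln had none. AGGTCA was found in 5 of the 8 windows, those of Upk3b, Lrrn4, Krt7, Krt8 and Krt18, against 16.3% of all 32851 windows of this length. In the 4 windows printed it lay at -155 in Upk3b, -8 in Lrrn4, -225 in Krt8 and -108 in Krt18, counted to its first base from the start site. These 4 windows were picked by the fold changes of their genes, so no relation of a match to those fold changes is read. GGAATG was found in 3 of the 8 windows, those of Upk3b, Lrrn4 and one of Gpm6a, against 14.7% of all. TATAAA was found in 2 (13.6% of all), those of Krt8 and one of Gpm6a. Krt8 had 2 overlapping matches on opposite strands, at -3 and -1 from the start site, and the match in Gpm6a lay at -211. GGGCGG was found in 3, those of Bnc1, Krt7 and one of Gpm6a (35.7% of all). A match is a string of letters in this window, and its use by a factor was not tested. The members were picked with the contrast known, so nothing is read from these shares.

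Of the 10 members, 5 passed the threshold of the fit over all genes (edgeR quasi-likelihood test, Benjamini-Hochberg adjusted p below 0.05), all higher in mutant testes: Upk3b, Upk1b, Lrrn4, Krt19 and Msln. Over all tested genes 3.15% were called higher, 2.52% lower and 5.67% in either direction, but the members were picked with this contrast known and nothing is read from the difference. The log2 fold change was above 0 in 9 members and in 49.2% of all tested genes, with a median of 0.80 over the 10 members and -0.01 over all tested genes. In 8 members both mutant libraries lay above both wild-type libraries, as in 28.3% of all tested genes, and in none did both lie below, as in 29% of them. The exceptions were Krt8 and Krt18. Leaving out control 1, which had the lowest level of each of the 5, their edgeR calls were lost, and calls over all genes fell as well. The log2 fold changes of the 5 then ran from 0.79 (Krt19) to 1.03 (Lrrn4). Without wild-type replicate 2 the calls of Upk3b and Msln were lost, at log2 fold changes of 1.11 and 1.02. Without mutant replicate 1 the lowest of the 5 was Msln at 1.10, and Krt7 and Gpm6a, then called too, stood at 0.76 and 1.01. Without mutant replicate 2 the lowest of the 5 was Msln at 0.68, and Krt18, then called lower, stood at -0.61. On all 4 libraries DESeq2 called 6 members and 1026 of 14788 genes, and limma voom 5 members and 581 genes. With 2 libraries a group, an exact permutation test of a single gene cannot go below a two-sided p of 0.333.

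**Figure D1:**
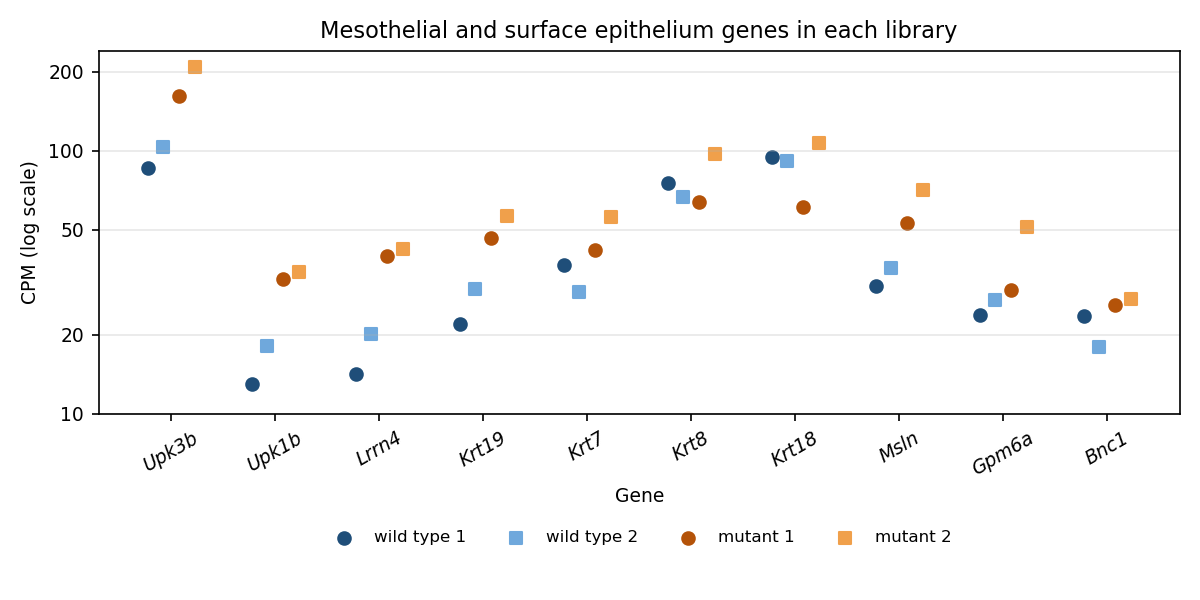
CPM on a log axis for each of the 10 genes, with circles for replicate 1 and squares for replicate 2 of wild-type (blue) and mutant (orange) testes. Both orange points lie above both blue points in 8 genes, and in Krt8 and Krt18 they lie on either side.

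Of the 5 members that encode membrane proteins of the mesothelial surface, 4 were called, against 3.15% of all tested genes called higher. They were picked with the contrast known, so nothing is read from this count. Upk3b, a uroplakin of mesothelial cells (chromosome 5, 136514366 to 136521173, plus strand, mm9), was at 85.7 and 103 CPM in the controls against 162 and 209 in the mutants. The groups did not overlap, and the lower mutant value was still above the higher wild-type one by more than the gap between the wild types. The log2 fold change was 0.98 ± 0.14 (SE), or 1.97-fold. Upk1b, a tetraspanin that partners with uroplakins of the third class (chromosome 16, 38773297 to 38800316, minus strand), read 13.0 and 18.1 CPM in the controls against 32.6 and 34.5 in the mutants. Its mutant libraries lay close together and the wild types further apart, with a log2 fold change of 1.12 ± 0.17. Msln, which encodes mesothelin, a surface protein anchored by a lipid (chromosome 17, 25885559 to 25891272, minus strand), read 30.7 and 35.7 CPM in the controls against 53.0 and 71.1 in the mutants, a log2 fold change of 0.91 ± 0.16.

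Lrrn4, a leucine-rich repeat membrane protein used as a mesothelial marker (chromosome 2, 132694041 to 132706627, minus strand), had the highest fold change of the 10. It was at 14.1 and 20.1 CPM in the controls against 39.7 and 42.3 in the mutants. Every mutant value was well above the wild-type ones, and the log2 fold change was 1.28 ± 0.17, or 2.42-fold. Gpm6a, a membrane glycoprotein of neurons that mesothelial cells also make (chromosome 8, 56040081 to 56146231, plus strand), read 23.8 and 27.2 CPM in the controls against 29.7 and 51.3 in the mutants. Only mutant replicate 2 stood apart, and the log2 fold change of 0.69 ± 0.24 was not called. It was 1.01 without mutant replicate 1, where it was called, and 0.22 without mutant replicate 2.

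The simple keratins split. Krt19, a small type I keratin (chromosome 11, 100002124 to 100009979, minus strand), read 22.0 and 29.7 CPM in the controls against 46.5 and 56.3 in the mutants, with a log2 fold change of 1.01 ± 0.17. Its values separated the groups as those of the surface proteins did. Krt7, a type II keratin (chromosome 15, 101241474 to 101260744, plus strand), read 36.8 and 28.9 CPM in the controls against 41.9 and 56.0 in the mutants. The groups did not overlap, but mutant replicate 1 lay only a little above wild-type replicate 1, and the log2 fold change of 0.58 ± 0.17 was not called by edgeR. DESeq2 called it at 0.58, and edgeR did at 0.76 without mutant replicate 1.

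Krt8 and Krt18 showed no common direction. Krt8 (type II, chromosome 15, 101827142 to 101834773, minus strand) read 75.6 and 66.9 CPM in the controls against 63.6 and 97.2 in the mutants. Its partner Krt18 (type I, chromosome 15, 101858647 to 101862457, plus strand) read 94.3 and 91.3 CPM in the controls against 60.9 and 107 in the mutants. In both genes mutant replicate 1 was the lowest of the 4 libraries and mutant replicate 2 the highest. The log2 fold changes were 0.18 ± 0.18 and -0.13 ± 0.22, neither called. Their signs hung on 1 library: Krt8 was at -0.17 without mutant replicate 2, and Krt18 at 0.21 without mutant replicate 1 and at -0.61, a call, without mutant replicate 2. The pair are neighbours, 23.9 kb apart with no other annotated gene between them, and Krt7 lies 566 kb from Krt8. The coding sequence of Krt8 has a copy elsewhere in the genome that matches over 1474 bases at 97.7% identity, so reads shared with that copy may have been set apart or misplaced. No such copy, of at least 100 bases at 95% identity, was found for the other 9.

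Bnc1, a zinc finger protein of germ cells and squamous epithelium (chromosome 7, 89111558 to 89137185, minus strand), had the smallest fold change of the 8 members whose groups did not overlap. It was at 23.6 and 17.9 CPM in the controls against 25.8 and 27.3 in the mutants. The lower mutant value was above the higher wild-type value by less than the gap between the wild types. The log2 fold change was 0.35 ± 0.16 and was not called. The 12 germ cell genes of the same libraries summed to 907 and 615 CPM in the controls against 346 and 310 in the mutants, and their part in the value of Bnc1 was not tested. An annotated pseudogene, absent from the count table, overlaps Bnc1 on the opposite strand.

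**Figure D2:**
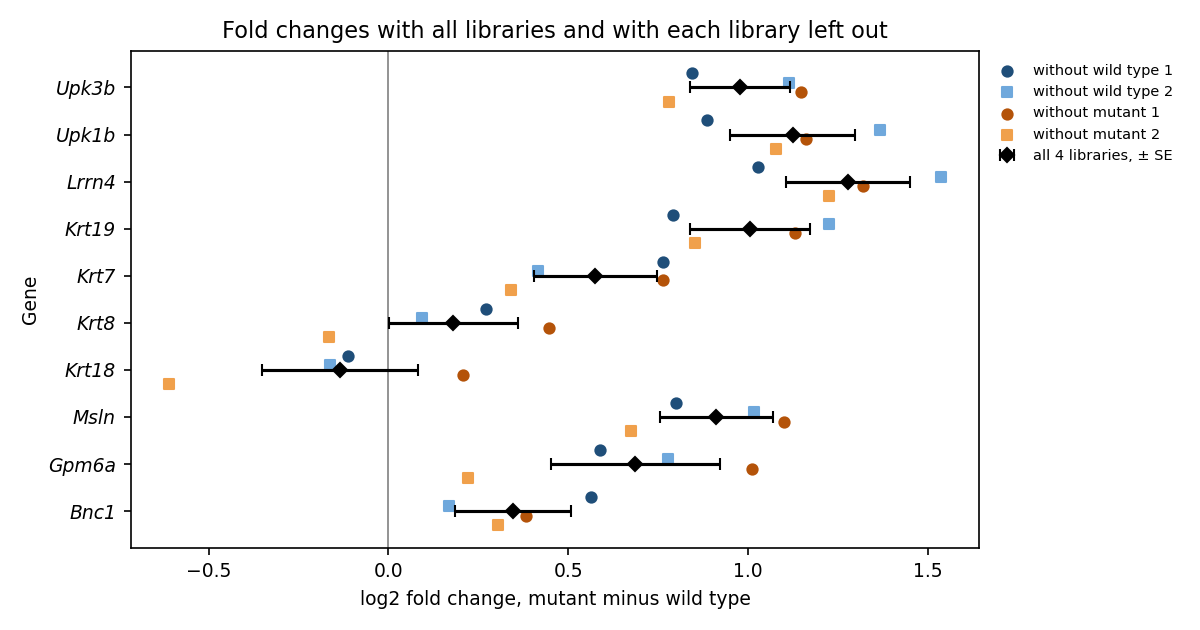
Log2 fold change, mutant minus wild type, for each gene: black diamonds with bars show the fit on all 4 libraries ± SE, and coloured points the fit with the named library left out. Krt8 and Krt18 have points on both sides of 0, while the other 8 genes stay above 0.

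Levels can be set beside each other only per transcript length. In CPM per kilobase of the transcript with the longest coding sequence, Krt18 was the most abundant member in wild type at 66.3 ± 1.55 (SD, n = 2). Upk3b at 40.3 ± 5.28 and Krt8 at 39.4 ± 3.41 followed and did not differ beyond their spread. Krt19 at 16.4 ± 3.45 and Msln at 15.7 ± 1.66 also overlapped, as did Upk1b at 8.80 ± 2.06, Krt7 at 8.03 ± 1.36 and Gpm6a at 7.64 ± 0.709. Lrrn4 at 4.60 ± 1.14 and Bnc1 at 4.46 ± 0.858 were lowest. In mutant testes Upk3b came first at 79.1 ± 14.1 CPM per kilobase, ahead of Krt18 at 60.0 ± 23.4 in each library though their spreads overlapped. Krt8 at 44.6 ± 13.2, Krt19 at 32.6 ± 4.40 and Msln at 29.3 ± 6.05 followed, each overlapping the next. Upk1b, at 18.4 in mutant replicate 1 and 19.5 in mutant replicate 2, stood alone, and Gpm6a at 12.1 ± 4.58 and Krt7 at 12.0 ± 2.45 overlapped with Lrrn4. Lrrn4, at 11.0 ± 0.504, then stood clear of Bnc1 at 5.71 ± 0.215. The annotated Krt7 transcript is 4.09 kb long, of which 1374 bases are coding, so its level per length is low if shorter forms dominate.

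The keratins differed in their proportions. Krt19 made up 10.6% and 14.7% of the 4 keratins, per length, in the controls against 24.9% and 19.9% in the mutants. Krt18 made up 51.0% and 50.9% of them in the controls against 36.7% and 42.6% in the mutants. Neither share overlapped between the groups, which is a description of members chosen on this contrast. The 4 keratins together were at 132 and 128 CPM per kilobase in the controls against 118 and 180 in the mutants, so the sum did not separate the groups. Type II over type I chains, per length, gave ratios of 0.625 and 0.525 in the controls against 0.623 and 0.601 in the mutants, which overlap.

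**Figure D3:**
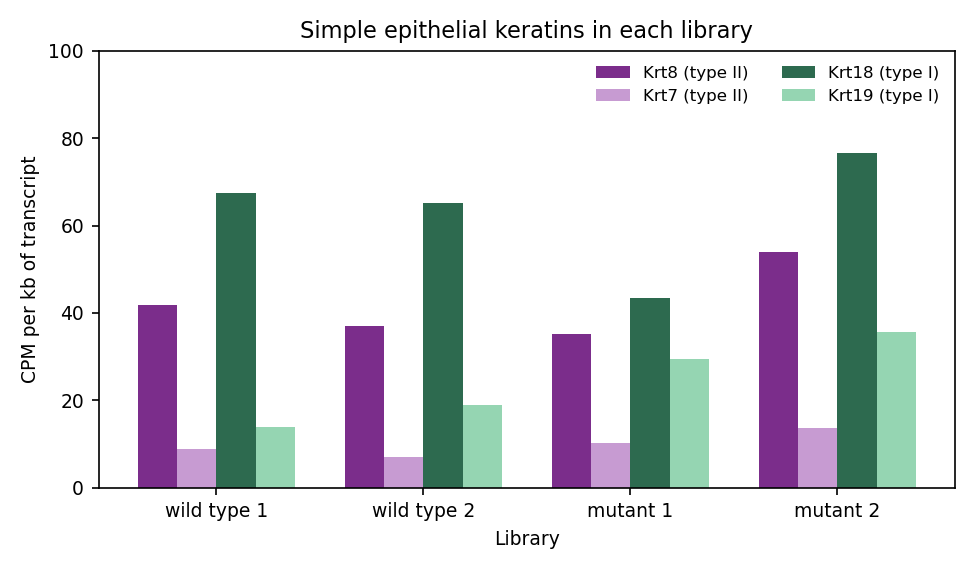
CPM per kilobase of transcript for Krt8, Krt7, Krt18 and Krt19 in each of the 4 libraries, 1 bar per gene. Krt19 is higher in both mutant libraries, while Krt18 is lowest in mutant replicate 1 and highest in mutant replicate 2.

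Set against Upk3b within each library, a measure that does not depend on library size, the members differed in how steady they were. Upk3b is itself a member chosen on this contrast and was 1.97-fold higher in the mutants. A gene with no change of its own therefore falls by this measure, and a steady one only shares the change of Upk3b. Per 100 reads of Upk3b, Msln gave 32.7 to 35.8 reads over the 4 libraries. Krt19 gave 25.7 and 28.8 in the controls against 28.7 and 26.9 in the mutants, and Upk1b 15.2 to 20.1 over the 4 libraries. Lrrn4 gave 16.5 and 19.5 against 24.5 and 20.3, Krt7 42.9 in control 1 against 25.8 and 26.8 in the mutants, with control 2 just above them, and Gpm6a 27.8 and 26.3 against 18.3 and 24.5. Msln and Krt19 had the narrowest ranges for their size, and in Krt7 control 1 stood apart. Krt18 gave 110 and 88.4 reads in the controls against 37.6 and 51.3 in the mutants, and Krt8 88.2 and 64.8 against 39.2 and 46.5. Bnc1 gave 27.5 and 17.4 against 15.9 and 13.0.

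Mutant replicate 2 had the higher level in all 10 members. Its ratio to mutant replicate 1 was 1.05 to 1.07 for Bnc1, Upk1b and Lrrn4, 1.21 to 1.34 for Krt19, Upk3b, Krt7 and Msln, and 1.53, 1.73 and 1.76 for Krt8, Gpm6a and Krt18. The median ratio was 1.31 over the members and 0.998 over all tested genes. The order wild-type replicate 1, wild-type replicate 2, mutant replicate 1, mutant replicate 2, from low to high, was shared by Upk3b, Upk1b, Lrrn4, Krt19, Msln and Gpm6a, and by 4.88% of all tested genes. This order was picked out after the values were seen.

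Duct and epithelial genes were compared with Krt8 and Krt18. Rete and duct genes, 11 tested, summed to 191 and 151 CPM in the controls against 120 and 206 in the mutants, the same order of libraries as in the keratin pair. Gene by gene, that order was found in 4 of the 11 (36.4%), in 7 of 31 other keratin and epithelial junction genes (22.6%) and in 2.31% of all tested genes, and it was picked out after the values were seen. Cdh16, a cadherin of kidney and duct epithelium chosen after its values were seen, was at 61.9 and 41.5 CPM in the controls against 28.7 and 55.1 in the mutants. Epcam, an epithelial adhesion molecule also chosen so, was at 111 and 88.6 CPM in the controls against 63.9 and 103 in the mutants, and Cdh1, the epithelial cadherin, at 28.8 and 21.9 against 16.5 and 26.9. In these 3 genes mutant replicate 1 was the lowest library, as in the keratin pair, but control 1 and not mutant replicate 2 was the highest. None of the 3 was called with all 4 libraries, and without mutant replicate 2 Cdh16 and Epcam were, at log2 fold changes of -0.86 and -0.65. Of the 11, Foxj1, a factor of ciliated cells, was the 1 gene called, at 18.0 ± 0.481 CPM in the controls against 6.16 ± 3.57 in the mutants (SD, n = 2 each, edgeR adjusted p = 0.0361), not called when control 1 or control 2 was left out (log2 fold changes of -1.45 and -1.51). The 12 Sertoli cell genes summed to 5057 and 5400 CPM in the controls against 3783 and 3872 in the mutants, an order that neither keratin followed, and of these 1 rose, 5 fell and 6 were not called. The share called was 9.09% of the rete and duct list and 50% of the Sertoli list, against 5.67% of all tested genes. These lists were chosen with earlier results known, so nothing is read from the shares. The part of ducts and Sertoli cells in the keratin values was not tested.

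**Figure D4:**
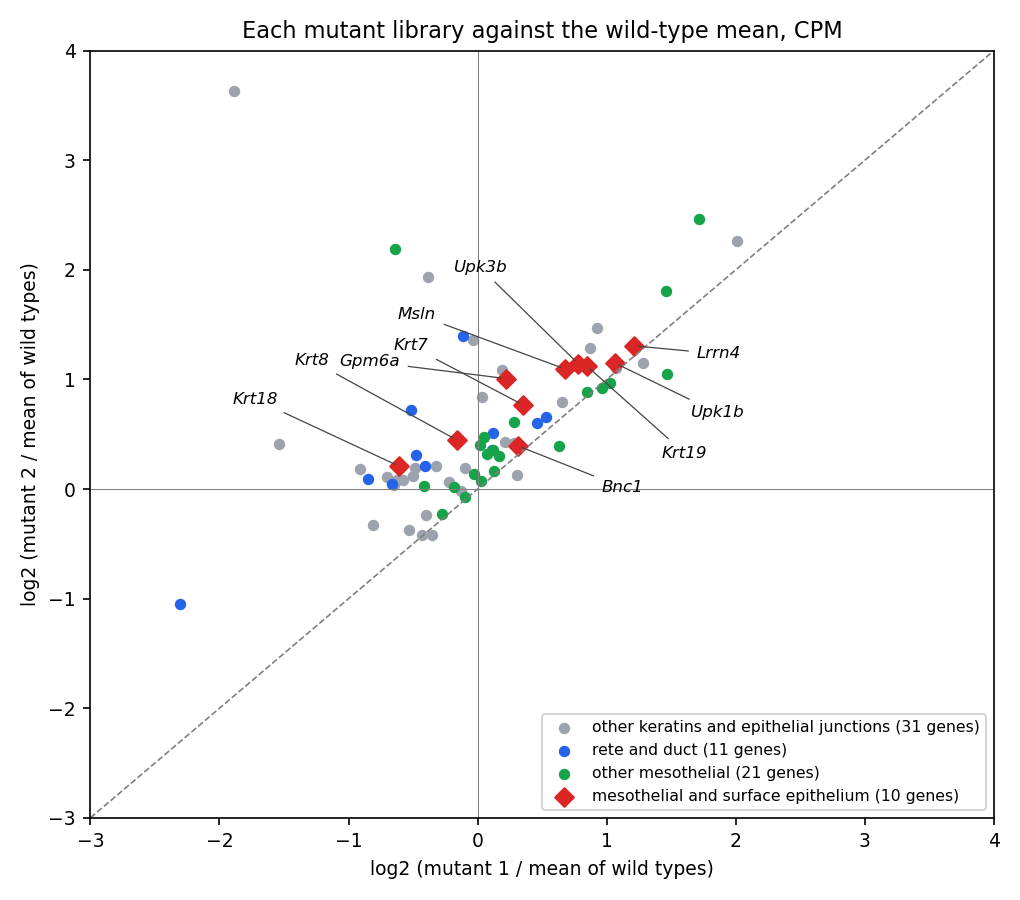
Log2 ratio of mutant replicate 1 (horizontal) and mutant replicate 2 (vertical) to the mean of the wild-type libraries, in CPM, for the 10 genes (red) and the tested genes of 3 other lists; the dashed line marks equal ratios. Upk1b and Lrrn4 lie near the line and Krt8, Krt18 and Gpm6a well above it.

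Other genes known from mesothelium, which are not members, were partly higher. Of 24 listed, 21 were tested, 6 rose, none fell and 15 were not called. The share called was 28.6% against 5.67% of all tested genes, and the median log2 fold change was 0.25. This list was chosen with earlier results of these data known, so nothing is read from the difference. Dmkn, which was not called, is also on the epidermal list. C3, the central complement component, rose from 34.5 ± 5.09 to 108 ± 18.4 CPM (SD, n = 2 each), 3.12-fold (edgeR adjusted p = 0.00444). Podxl, a sialomucin of podocytes and mesothelium, rose 1.99-fold, at 78.0 and 63.8 CPM in the controls against 145 and 139 in the mutants (edgeR adjusted p = 0.00577). Igfbp5, a binding protein of insulin-like growth factors, rose from 313 ± 1.96 to 757 ± 156 CPM (edgeR adjusted p = 0.00577), and Pkhd1l1, a large membrane protein, from 24 to 119 counts over the group (edgeR adjusted p = 0.0403). C3, Igfbp5 and Podxl are also made by stroma or endothelium, and the source of their reads was not tested. Of the 10 smooth muscle and fibroblast genes, a list without endothelial markers, edgeR called 0, with 5 at an unadjusted p below 0.05. DESeq2 called 1, Pdgfra, and limma voom 0. The fold change was positive in 7 of the 10, with a median log2 fold change of 0.25. Leaving out a library, edgeR called the collagens Col1a1 and Col3a1 without control 1 and no gene of the list without control 2. It called Des without mutant replicate 1, and Col1a1 and Des without mutant replicate 2. The collagens were chosen after their values were seen. Des was at 87.3 and 63.8 CPM in the controls against 246 and 110 in the mutants. Mutant replicate 1 was the higher mutant, as in the sums of skeletal muscle genes, whose part in the value of Des was not tested.

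Chosen after their values were seen, the heparan sulfate editing gene Sulf1 (69.2 and 67.2 against 133 and 129 CPM, edgeR adjusted p = 0.00444) and the claudin gene Cldn15 (9.16 and 9.70 against 17.0 and 17.4 CPM, edgeR adjusted p = 0.0302) make up the 6. C3, Podxl and Sulf1 were called in each of the 4 fits that left out a library. Pkhd1l1 and Cldn15 were not called when a control was left out, at log2 fold changes of 2.88 and 0.83 without control 1 and 1.70 and 0.91 without control 2, and Pkhd1l1 was not called either by limma voom (2.15), without a filter beyond 1 count (2.11) or with the replicate block (2.05). Igfbp5 lost it without wild-type replicate 1, at 1.28. Without that library 3 of the list were called, against 6 with all 4. Wt1, the zinc finger factor of mesothelium that Sertoli cells also express, was at 236 and 229 CPM in the controls against 237 and 245 in the mutants (log2 fold change 0.05 ± 0.08). Calb2, which encodes calretinin, a classical mesothelial antigen, had only 4 to 14 counts per library and was not tested. Muc16 and Myrf were not analysed here.

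Of 10 regulators of the coelomic epithelium, 1 rose, none fell and 9 were not called (median 0.07, or -0.03 without control 2 and -0.01 without mutant replicate 1). The share called was 10% against 5.67% of all tested genes, and nothing is read from it. Lhx9, a homeobox factor needed to form the gonad, was at 48.2 and 46.0 CPM in the controls against 82.0 and 68.9 in the mutants (edgeR adjusted p = 0.0212). It was not called when control 1 or control 2 was left out, at log2 fold changes of 0.71 and 0.64. The zinc finger factor Gata4 and the nuclear receptor Nr5a1, both chosen after their values were seen, had log2 fold changes of 0.17 ± 0.11 and 0.09 ± 0.09. In whole testis the values of these regulators cannot be assigned to the covering cells.

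Uroplakin partners of the bladder lining were nearly absent. The plaques of urothelium also need Upk1a, Upk2 and Upk3a, which had 5 to 8, 0 to 10 and 0 to 1 counts per library, while Upk1b and Upk3b had 173 or more. All 3 were below the filter and were not tested. Of the 6 tested relatives of members, edgeR called 0, with 4 at an unadjusted p below 0.05 and 0 called by DESeq2 or limma voom. Lrrn3, a relative of Lrrn4, had a log2 fold change of 0.52 ± 0.17 (edgeR adjusted p = 0.108). Leaving out control 2 or mutant replicate 2, edgeR called 1 relative each, Gpm6b and Lrrn1, both chosen after their values were seen. The nerve and Schwann cell genes, listed because neurons hold Gpm6a, summed to 255 and 232 CPM in the controls against 291 and 267 in the mutants. Of 11 tested, Stmn2, a neuronal stathmin, was the 1 gene called by edgeR, at 2.38-fold (adjusted p = 0.0221), with 7 at an unadjusted p below 0.05. DESeq2 and the replicate block each called 3 higher, and leaving out mutant replicate 2 gave 3 higher and 1 lower. Left without control 1 or 2, its adjusted p by edgeR was 0.12 and 0.0759. The share of the nerve list called by edgeR on all 4 libraries was 9.09%, against 5.67% of all tested genes, and nothing is read from it. The part of nerve in the value of Gpm6a was not tested.

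Among other keratins and epithelial junction genes most were not called. Of 31 tested, 4 rose, none fell and 27 were not called (12.9% against 5.67% of all tested genes). Nothing is read from that difference either, as the list was chosen with earlier results known. The median log2 fold change was 0.02, or -0.31 without mutant replicate 2. Krt14, a keratin of basal epithelial cells, rose from 5.24 ± 0.342 to 11.2 ± 0.204 CPM (SD, n = 2 each, edgeR adjusted p = 0.0299). Krt80 summed to 12 counts over the controls against 62 over the mutants, a ratio of 4.56 with an exact 95% interval of 2.43 to 9.29 that covers counting error only (edgeR adjusted p = 0.0352). Ppl, which encodes periplakin, a linker of keratin to the cell border, rose 2.34-fold (edgeR adjusted p = 0.0379). None of the 4 was called when a control was left out, where edgeR called 0 of the list with 9 at an unadjusted p below 0.05. The log2 fold changes of Krt14, Krt80 and Ppl were then 1.16, 1.96 and 1.44 without control 1, and 1.02, 2.34 and 1.06 without control 2. Ppl was also not called without mutant replicate 2, at 0.90. With all 4 libraries DESeq2 called Krt14 and Ppl of the list. Krt14 was also called by limma voom, without the filter and with the replicate block, but Ppl and Krt80 were not, at edgeR adjusted p of 0.0522 and 0.0521 with the block and limma voom adjusted p of 0.0537 and 0.0513.

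The epidermal transcripts of mutant replicate 2 touched this list. Krt5 had 14, 3 and 2 counts in wild-type replicates 1 and 2 and mutant replicate 1 and 131 in mutant replicate 2, and Krt10 was at 10.6 to 16.1 CPM in the same 3 and 53.3 in mutant replicate 2. Of the 14 epidermal genes 12 were highest in that library, Krt77 was at 0 in all and edgeR called 0 of 10 tested, with 3 at an unadjusted p below 0.05 and 0 called by DESeq2 or limma voom. Without mutant replicate 1 edgeR called 8 of them. Without mutant replicate 2, the log2 fold changes of Upk3b, Upk1b, Lrrn4, Krt19 and Msln were 0.78, 1.08, 1.22, 0.85 and 0.68. Without mutant replicate 1, which had the higher sum of muscle genes, they were 1.15, 1.16, 1.32, 1.13 and 1.10. Each of these fits kept a mutant library rich in muscle transcripts. The muscle genes summed to 2714 and 706 CPM in the mutants against 25.5 and 23.1 in the controls. Tissue carried over with the testes cannot be told apart from an effect of genotype in this design. Its part in the values of the members was not tested.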

How the data were processed

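Gene counts from 4 libraries were used. DESeq2, HTSeq, TopHat 1.4.0, CASAVA 1.8.1 and the mm9 build are named, per the submitters' processing notes, without their roles. The authors deposited 1 table, handled in the unit of estimated counts because percentages share its columns below the last gene. All gene values in it are whole raw counts, equal in sum to the table's own totals, so rounding changed nothing. Reads in no gene (13.8% to 17.3% of counted reads) and ambiguous reads (0.602% to 0.726%) were left out. Which annotation was counted, and whether by strand, is not given in the sources used here, and overlapping genes cannot be separated.

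Counts were tested with edgeR 4.0.16 (R 4.3.3): TMM scaling, default expression filter (minimum count 10, minimum total 15), quasi-likelihood F test with the legacy option off, genotype alone, two-sided, Benjamini-Hochberg adjustment over 14788 genes, threshold 0.05. The fit was also run on simulated counts with the same dispersion for every gene and no carried-over tissue. These libraries need not follow that setting, so nothing about them is read from it. SE is the log2 fold change over the square root of F. CPM uses TMM-adjusted library sizes. Alternatives were DESeq2 1.42.0, limma voom (limma 3.58.1), other normalisations, filters and options, a replicate block, and each library left out. Positions and lengths are GENCODE M1 on NCBIM37 (mm9), copies were sought with blastn 2.17.0, and promoter windows are RefSeq on GRCm38.p6.

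The members, the 11 other lists and the rule for named genes (all members, Thra, Thrb, and per list up to 4 called genes with the largest change or else the 2 with the smallest p) were chosen with earlier results of these data known. Genes outside the rule were picked with their values in view, including Amh, Krt1, Wt1, Calb2, Krt5, Krt10, Krt77, Upk1a, Upk2 and Upk3a. Called genes of the Sertoli, germ, muscle and fat lists are given as sums or counts only, except Fabp4. Some genes that the rule names are not reported here.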

Additional observations from a re-analysis of the deposited data

How the results depend on the processing

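Over the 10 alternatives that kept all 4 libraries, every member kept its sign, and the only member call that changed was Krt7, called by DESeq2 (0.58). The leave-one-out fits changed more. They called 74 to 1295 genes against 839, 0 to 7 members against 5, 3 to 8 other mesothelial genes against 6, and 0 to 8 other keratin and junction genes against 4. Without a filter beyond 1 count, 500 genes were called, and the keratin and junction count was 1, as by limma voom, against 2 by DESeq2 and 2 with the replicate block. Leaving out 1 library turned the sign of 9 of the genes refitted, given as the lowest and highest log2 fold change: Krt8 -0.17 to 0.45, Krt18 -0.61 to 0.21, Epcam -0.65 to 0.0365, Cdh1 -0.63 to 0.0766, Cdh16 -0.86 to 0.0859, Thrb -0.0363 to 0.0955, Amh -0.18 to 0.15, Krt5 -1.92 to 3.98 and Krt10 -0.37 to 1.95. The low ends were without mutant replicate 2, except Thrb (without wild-type replicate 1) and Amh (without wild-type replicate 2), and none of the 9 was called with all 4 libraries. The cause was not tested. Replicate numbers did not pair the libraries: deviations of the same-numbered ones from their group means correlated at -0.03 over 14788 genes. With the replicate block 853 genes and the same number of members, 5, were called. Counting error was at most 7.60% for the members, while Calb2 and the bladder uroplakins had too few counts to compare. Under TMM and the other scalings the median log2 fold change of all genes lay at most 0.014 from 0.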

Other observations

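Fat cell and germ cell genes were read in the same libraries. Of 10 adipocyte genes 4 fell and none rose, among them Fabp4, a fatty acid carrier, from 50.5 and 52.2 CPM in wild-type replicates 1 and 2 to 12.4 and 8.75 CPM in mutant replicates 1 and 2 (edgeR adjusted p = 0.00236). The 10 genes summed to 353 and 311 CPM in the controls against 388 and 224 in the mutants, so the sum itself did not separate the groups. In 3 of the 10 the fold change was positive, among them Car3, chosen after its values were seen. Car3 weighed on that sum, at 42.8 and 43.3 CPM in the controls against 151 and 48.4 in the mutants. Without either wild-type library 1 of the list was called lower, and without mutant replicate 2 there were 4 lower and 1 higher. Of 11 germ cell genes tested 9 fell and none rose, and 6 were called lower with edgeR's robust option. Fewer were called without wild-type replicate 1, at a median log2 fold change of -1.06 against -1.34 with all 4 libraries. The share called was 40% of the fat list and 81.8% of the germ list, against 5.67% of all tested genes. Both lists were chosen with earlier results known, so nothing is read from the shares.

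Krt14 and Krt5 encode the chains that pair in basal epithelial cells. Krt14 had 121 and 177 counts in mutant replicates 1 and 2, while Krt5 had 2 and 131. Krt14 was read at 11.0 CPM in a library with 2 counts of Krt5.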
